A study of Arabidopsis thaliana with 9 samples.

Results

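Roots of Arabidopsis thaliana that overexpress SCL3 were compared directly with roots that lack it. Both lines carried ga1-3, a mutation of the gibberellin synthesis gene GA1, so every plant examined was gibberellin-deficient. The comparison used 6 of the 9 arrays of the study. They were the 3 titled ga1-3 SCL3OE, described as a gain of function, and the 3 titled ga1-3 scl3-1, which carry a loss-of-function allele of SCL3. The other 3 arrays, of ga1-3 alone, formed no part of the contrast. They entered the filter on dim probe sets and the estimate of spread, and their values are given for reference. Each array held RNA from whole roots 7 days after germination, from seedlings kept on MS medium at 22 °C in 16 h of light and 8 h of dark, and 300 ng of total RNA was labelled by a 3' IVT kit. The replicates of a group are biological ones per the design text. The promoter that drives SCL3 in the overexpressing line, and whether that line is a single transformant, are not given in the sources used here.

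Gibberellins promote growth by binding GID1 receptors, which then bring DELLA proteins to F-box proteins for degradation. DELLAs are repressors of the GRAS family. SCL3 belongs to the same family, is switched on by DELLAs and counteracts them, and in the root it acts in the endodermis, downstream of the ground tissue regulators SHR and SCR. The direct contrast asks how far the root transcriptome differs between much and no SCL3 when gibberellin is scarce.

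The arrays were Affymetrix ATH1 arrays, on which a set of short probes measures a transcript. MAS5 signals of 22746 probe sets were deposited, and 14117 were tested because at least 3 of the 9 arrays reached the 40th percentile of their own array. A gene table named 1 gene for 13513 of the probe sets and several genes for 503, and the other 8730 are unnamed here. SCL3 and GA1 were on none of the named probe sets, so neither the overexpression nor the loss was checked by signal. Array medians were 183 to 185 in SCL3OE and 195 to 204 in scl3-1, while the 99th percentile was 8374 to 9087 against 5867 to 6203. Signals were thus spread more widely on the SCL3OE arrays, which bears on bright genes below. Pairs of arrays correlated over the tested probe sets, which are no replicates, with a Pearson's r of 0.989 to 0.990 within SCL3OE, 0.984 to 0.990 within scl3-1 and 0.936 to 0.945 between them. Of the cell types expected in a root, markers of hair cells, cortex, endodermis and dividing cells were on tested probe sets and had signals, whereas none of the listed markers of xylem, phloem, root cap, stem cell niche or non-hair epidermis was on a named probe set that was tested. A whole root is a mixture, and fewer cells of a type cannot be told apart from less RNA per cell.

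A large share of the measured transcriptome differed between the lines. By limma with Benjamini-Hochberg adjustment over all tested probe sets, 5527 passed an adjusted p of 0.05, which is 39.2% of those tested. They were 2189 higher in SCL3OE (15.5%) and 3338 lower (23.6%). Most differences were small: the median size was 0.54 on the log2 scale among called probe sets and 0.26 among all tested, with a median standard error (SE) of 0.13. At least 2-fold differences were called for 711 probe sets (5.04%), of which 223 were higher in SCL3OE and 488 lower, and at least 4-fold ones for 92, with 20 higher and 72 lower. The lines did not overlap, with all 3 arrays of one above all 3 of the other, at 7447 probe sets (52.8%).

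**Figure D1:**
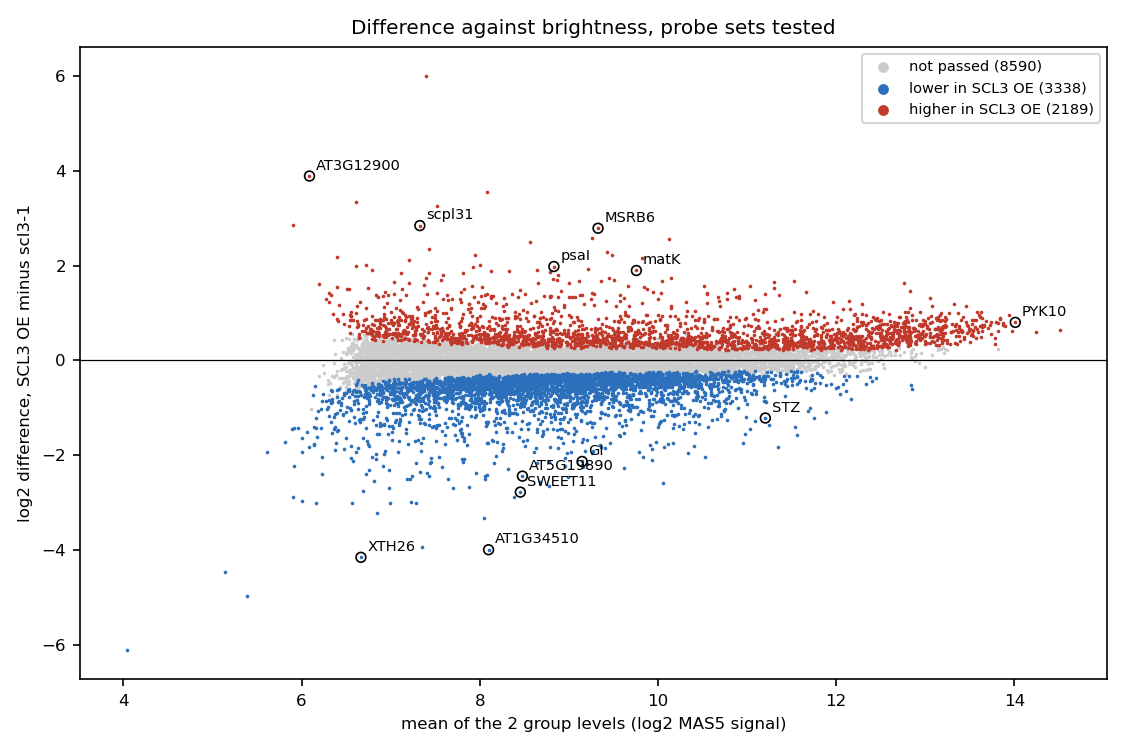
Each point is a tested probe set, with the mean of both lines' levels (log2 MAS5 signal) on the x axis and the log2 difference, SCL3OE minus scl3-1, on the y axis. Red points (2189) were called higher in SCL3OE, blue points (3338) lower, and circles mark genes described in the text; most blue points lie at low and middle brightness, and the brightest probe sets are mostly red.

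The balance between higher and lower calls turned on brightness and on scaling. The tested probe sets were put in 10 bins of equal size by mean signal. In the brightest bin, with signals from 2331 to 24028, 765 were higher in SCL3OE and 92 lower. In each of the other bins the lower calls were the more numerous. After quantile normalization, which gives every array the same distribution, 2317 probe sets were higher and 2393 lower, and the brightest bin held 244 and 221. With each array centred on its median, 3166 were higher and 2203 lower. The share called higher was therefore 39.6%, 49.2% or 59.0% by scaling, and the median of all tested probe sets was -0.07, 0.01 or 0.06 on the log2 scale. The 2-fold counts leaned the same way throughout, with 262 higher and 405 lower after quantile normalization and 324 and 382 after median-centring. Values below keep the deposited scaling, and values or counts under the others stand beside lists and genes that depend on them.

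**Figure D2:**
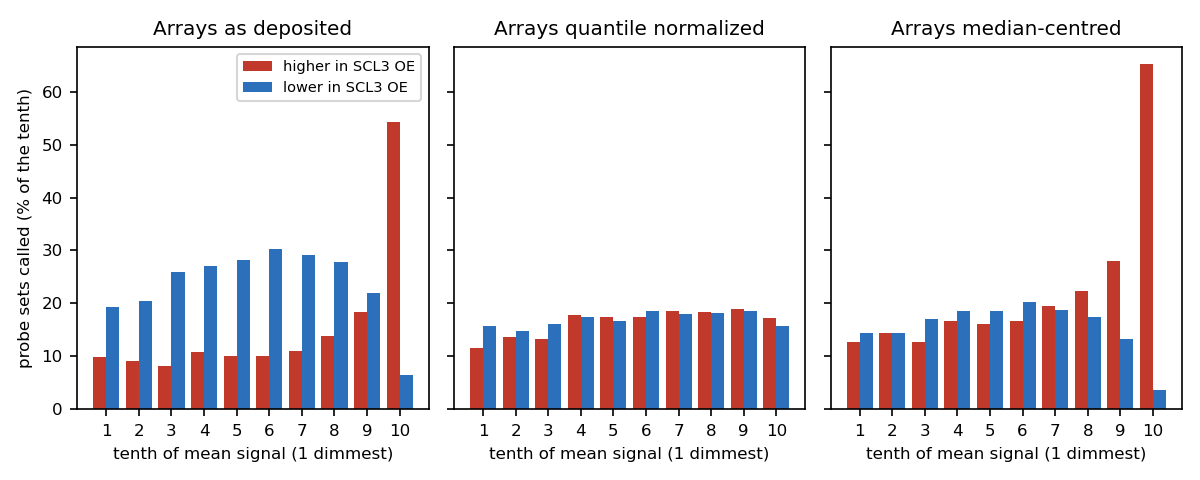
Share of probe sets called higher (red) or lower (blue) in SCL3OE, in percent of each of 10 equal bins of mean signal, from the dimmest (1) to the brightest (10), under 3 scalings. In the brightest bin 54.2% were higher and 6.52% lower on the deposited scale, 17.3% and 15.7% after quantile normalization, and 65.2% and 3.54% after median-centring.

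Among the genes with the largest rises, enzymes of several pathways and 3 plastid-encoded genes were found. AT3G12900 encodes the scopoletin hydroxylase that makes iron-binding coumarins. Its signals were 230, 292 and 255 in SCL3OE, 19.3, 21.9 and 12.4 in scl3-1, and 12.6, 9.18 and 31.1 in ga1-3. The gene was thus near the bottom of the scale on the other 6 arrays. The log2 difference was 3.89 (SE 0.39, adjusted p = 2.07e-06), a size that is uncertain since the scl3-1 mean lies far below the filter level (105.9 on average). An offset of 50 before log2 made it 2.18. MSRB6 encodes a methionine sulfoxide reductase, which repairs oxidised methionine in proteins. Its signals were 1536, 1977 and 1555 in SCL3OE against 229, 284 and 220 in scl3-1 and 272, 185 and 164 in ga1-3. The lines were far apart, by 2.79 (SE 0.17, adjusted p = 1.29e-08), and the ga1-3 arrays overlapped those of scl3-1.

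The serine carboxypeptidase-like gene scpl31 had signals of 455, 445 and 383 in SCL3OE, 45.5, 68.9 and 66.8 in scl3-1, and 77.8, 91.0 and 109 in ga1-3. All 3 ga1-3 arrays lay between the lines, close to scl3-1, and the lines differed by 2.84 (SE 0.19, adjusted p = 3.22e-08). AT5G37690, a GDSL-type lipase gene, rose from 331 ± 30.3 (SD, n = 3) in scl3-1 to 1551 ± 95.5 in SCL3OE (2.23, SE 0.12). AT3G56290 followed another order. It had signals of 777, 1075 and 828 in SCL3OE, 187, 182 and 113 in scl3-1 and 92.1, 66.5 and 52.4 in ga1-3, so that ga1-3 was below both lines (2.49 between the lines, SE 0.22). The remaining rises by size were those of AT1G78990, AT1G73120, AT5G62420 and AT5G49350, from 1.88 to 2.36, and of the plastid genes psaI, accD and matK, described below.

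Peroxidase, calcium-binding and cell wall genes were among the largest falls. XTH26 encodes a xyloglucan endotransglucosylase, a wall-modifying enzyme of root hairs. Its signals were 34.6, 14.5 and 25.4 in SCL3OE against 456, 407 and 385 in scl3-1 and 436, 316 and 335 in ga1-3. The SCL3OE arrays were close to the bottom of the scale, so the log2 difference of -4.15 (SE 0.24, adjusted p = 9.85e-09) has an uncertain size and was -2.64 with an offset of 50. The class III peroxidase gene AT1G34510 had signals of 79.2, 64.2 and 63.1 in SCL3OE, 961, 1162 and 1155 in scl3-1, and 1086, 942 and 881 in ga1-3. It combined a large difference with a small spread (-3.99, SE 0.13, adjusted p = 3.75e-11).

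SWEET11, a sucrose exporter gene, had signals of 113, 128 and 162 in SCL3OE, 757, 1031 and 965 in scl3-1, and 988, 1212 and 1038 in ga1-3. The difference was -2.78 (SE 0.15, adjusted p = 3.77e-09), and again ga1-3 was level with scl3-1. AT5G19890, another class III peroxidase gene, instead showed 3 separate levels. Its signals were 141, 164 and 154 in SCL3OE, 468, 453 and 479 in ga1-3 and 692, 925 and 884 in scl3-1, and the lines differed by -2.44 (SE 0.12, adjusted p = 2.52e-09). The peroxidase gene AT5G39580 fell from 625 ± 68.1 (SD, n = 3) to 118 ± 23.8 (-2.41, SE 0.16).

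ORA47 encodes an AP2/ERF factor that activates jasmonate synthesis genes, and it fell from 711 ± 177 to 142 ± 5.58 (-2.29, SE 0.18). The calmodulin-like gene AT3G01830 was lower by a log2 difference of -2.98 (SE 0.25). So was AT1G30760, whose product resembles berberine bridge enzyme, an oxidase (-2.50, SE 0.15). The GH3-family gene AT1G23160 differed by -2.31 (SE 0.21), a size made uncertain by an SCL3OE mean of 48.7, and by -1.55 with the offset. AT5G28630, AT2G10940 and AT1G76640, a calmodulin-like gene, complete the 12 largest falls, with values from -2.50 to -2.36. All 24 genes of this paragraph and those before it that were chosen for size stayed called under each of the alternatives in which they were tested.

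**Figure D3:**
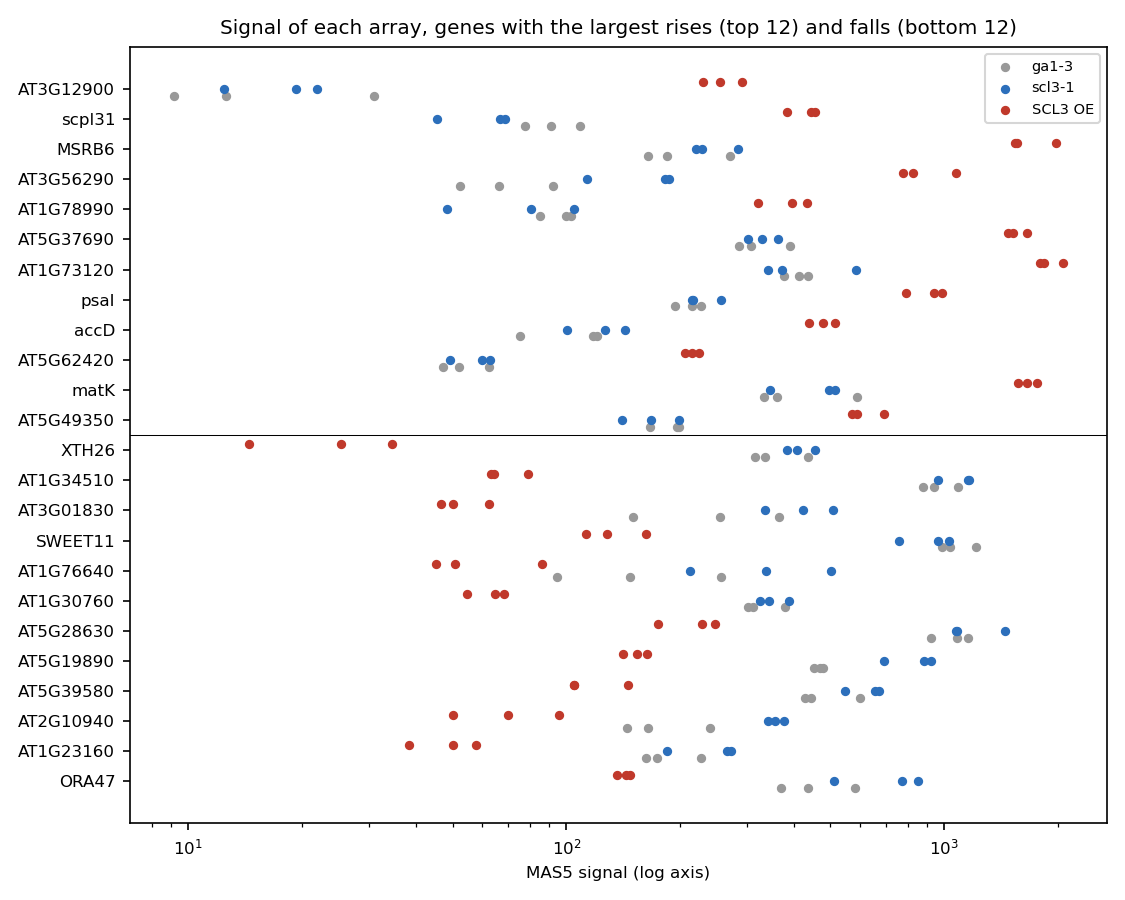
MAS5 signal of every array (log axis) for the 12 genes with the largest rises (upper rows) and the 12 with the largest falls (lower rows) in SCL3OE (red) against scl3-1 (blue), with ga1-3 in grey. No red point overlaps a blue one, which was a condition of the choice, and the grey points mostly sit with the blue ones, except for AT3G56290 (below both) and for scpl31, AT5G19890 and AT2G10940 (between).

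The largest rise of any probe set was on one that is unnamed here, 261866_at. Its signals were 1241, 1344 and 1177 in SCL3OE, 28.6, 8.48 and 30.6 in scl3-1, and 1171, 1383 and 1128 in ga1-3. It was thus at overlapping levels in SCL3OE and ga1-3 and near the bottom of the scale only in scl3-1, a pattern that just 2 of the 223 probe sets with at least 2-fold rises had, counted as ga1-3 arrays that overlap SCL3OE alone. The log2 difference was 6.0 (SE 0.33, adjusted p = 5.15e-09), or 4.18 with an offset of 50. Among unnamed probe sets that met the conditions set for named genes (non-overlapping lines and a brighter mean above 192.8), 267565_at had the most negative difference. Its SCL3OE signals were near the bottom of the scale (mean 9.09, against 193 in scl3-1), so the value of -4.96 has an uncertain size and was -1.98 with an offset of 50.

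The position of the ga1-3 arrays, which no test here used as a group, was counted as a description. Of the 711 probe sets with at least 2-fold differences, all of which had non-overlapping lines, 524 (73.7%) had ga1-3 arrays that overlapped scl3-1 alone. For 110 (15.5%) the 3 ga1-3 arrays lay between the lines, with 94 of these lower in SCL3OE and 16 higher. They lay above both lines for 27, below both for 32, overlapped SCL3OE alone for 8 and overlapped both for 10. Genes with ga1-3 between the lines included GI, AT5G19890, AT2G10940, AT4G24110, the cortex marker AT1G09750 and the glutathione transferase gene GSTL3.

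Plastid-encoded genes were higher in SCL3OE almost as a block. The plastid genome encodes photosystem subunits, ribosomal proteins, an RNA polymerase and a few enzymes, and roots keep it in non-green plastids. Of 69 plastid genes on named probe sets 46 were tested, and of these 42 were higher in SCL3OE, 25 of them at least 2-fold, 2 were lower and 2 did not pass. Their median log2 difference was 1.04, against -0.07 for all tested probe sets. In comparison, 961 of 7567 tested nuclear genes were higher and 1801 lower. Because 5 of the 46 passed the filter only through SCL3OE, the count was repeated on all 69 without a filter, and 50 were higher and 2 lower with a median of 1.03.

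The photosystem I gene psaI had signals of 942, 986 and 792 in SCL3OE, 216, 216 and 256 in scl3-1, and 227, 215 and 194 in ga1-3. The acetyl-CoA carboxylase subunit gene accD had 514, 478 and 439 in SCL3OE, 143, 127 and 101 in scl3-1 and 75.4, 118 and 120 in ga1-3. The maturase gene matK, whose product helps to splice plastid introns, had 1758, 1659 and 1563, then 515, 346 and 495, then 589, 334 and 362 in the same order. In all 3 genes the SCL3OE arrays stood apart and the other 6 overlapped. The log2 differences were 1.98 (SE 0.12), 1.96 (SE 0.19) and 1.90 (SE 0.18). The ribosomal protein gene rps15 had a difference of 2.18 (SE 0.26), of uncertain size because its scl3-1 mean was 39.5. The Rubisco large subunit gene rbcL was higher by 1.23 (SE 0.14), from 165 ± 6.41 (SD, n = 3) to 389 ± 52.3.

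The rise ran through nearly all functional classes, counted over tested genes. The class counts include the 5 genes that passed the filter only through SCL3OE, and they were not repeated without a filter. All tested genes were higher for photosystem I (3, at 1.30 to 1.98), ATP synthase (3), the NADH dehydrogenase-like complex (4), cytochrome b6f (2), RNA polymerase (3, at 1.22 to 1.55), the large ribosomal subunit (6) and the small ribosomal subunit (6, at 0.98 to 2.18). Photosystem II was the exception, with 7 of 11 higher, 2 lower and 2 not passed. Its gene psbE, for a subunit of cytochrome b559, had signals of 612, 590 and 575 in SCL3OE against 905, 1174 and 1200 in scl3-1 and 1161, 1252 and 1085 in ga1-3. It was lower by a log2 difference of -0.87 (SE 0.11, adjusted p = 2.38e-05). The gene psbF, for the partner subunit, was also lower (-0.54, SE 0.09). These genes are transcribed in 1 operon with psbL and psbJ. Yet psbL was called higher (0.67, SE 0.20), although its SCL3OE signals of 398, 449 and 325 overlapped those of scl3-1 at 201, 218 and 330. The gene psbJ did not pass (-0.07, 95% interval -0.34 to 0.19). Nor did psbH (0.35, 95% interval -0.12 to 0.83).

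**Figure D4:**
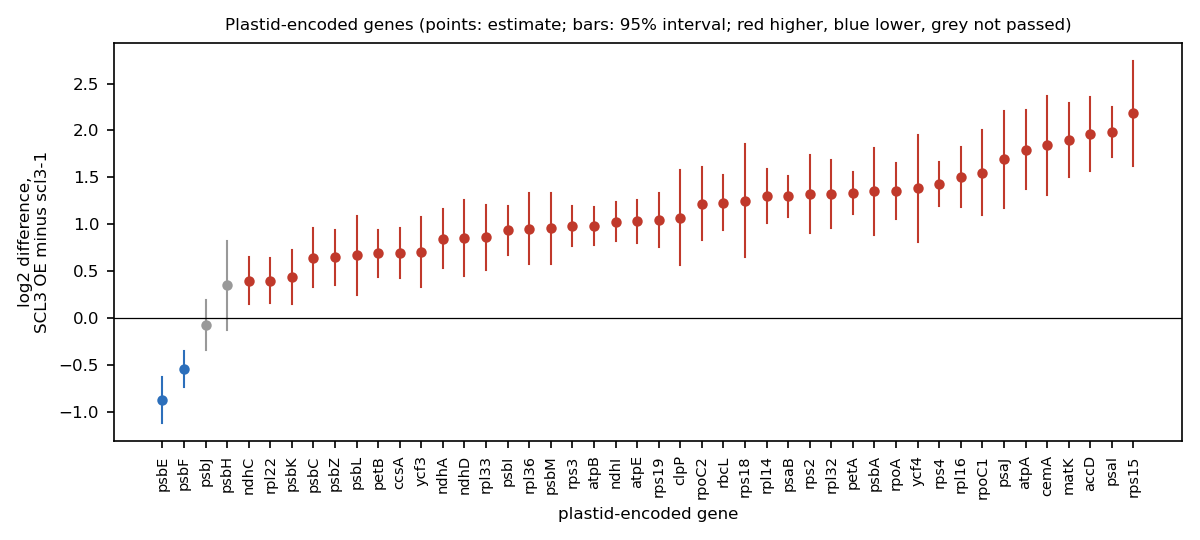
Log2 difference, SCL3OE minus scl3-1, of the 46 tested plastid-encoded genes, as the estimate (point) with its 95% interval (bar). Of these, 42 are above 0 and called (red), psbE and psbF are below 0 and called (blue), and psbJ and psbH did not pass (grey).

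The plastid result was the same, 42 higher and 2 lower, after quantile normalization and after median-centring, and 39 to 43 were higher over the alternatives with the same genes tested. The median signal of the plastid genes was 1109 to 1257 in SCL3OE, 545 to 645 in scl3-1 and 496 to 630 in ga1-3, below the brightest bin of probe sets. Several plastid genes were nonetheless within that bin, such as atpE (mean 10247 in SCL3OE and 5016 in scl3-1) and atpB (7031 and 3550). The plastid genes took 0.504% to 0.554% of all signal in SCL3OE and 0.297% to 0.314% in scl3-1. The labelling kit primes on poly(A) tails, which most plastid transcripts do not carry stably, so these signals are not measures of total plastid RNA. Of 12 listed nuclear markers of shoot photosynthetic tissue 2 were tested, and their summed signal was 1830 to 1871 in SCL3OE, 1936 to 2210 in scl3-1 and 1764 to 1921 in ga1-3. Neither marker was at 0 on any array. The Rubisco activase gene RCA did not pass (0.17, 95% interval -0.05 to 0.39), with SCL3OE signals of 1253, 1270 and 1284 against 1258, 1185 and 960, and LHCB4.1 was lower (-0.60, SE 0.12). Among 6 nuclear genes of photosystems and antennae 0 were higher by limma and 2 lower, the light-harvesting genes LHCB4.1 and LHCB4.2 (-0.84, SE 0.11). Their called share was 33.3%, below the 39.2% of all tested probe sets. Of 11 mitochondrion-encoded genes measured, only nad4 and cox1 were tested, and both were higher (0.89, SE 0.15, and 0.72, SE 0.22). Over all tested probe sets 15.5% were higher.

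**Figure D5:**
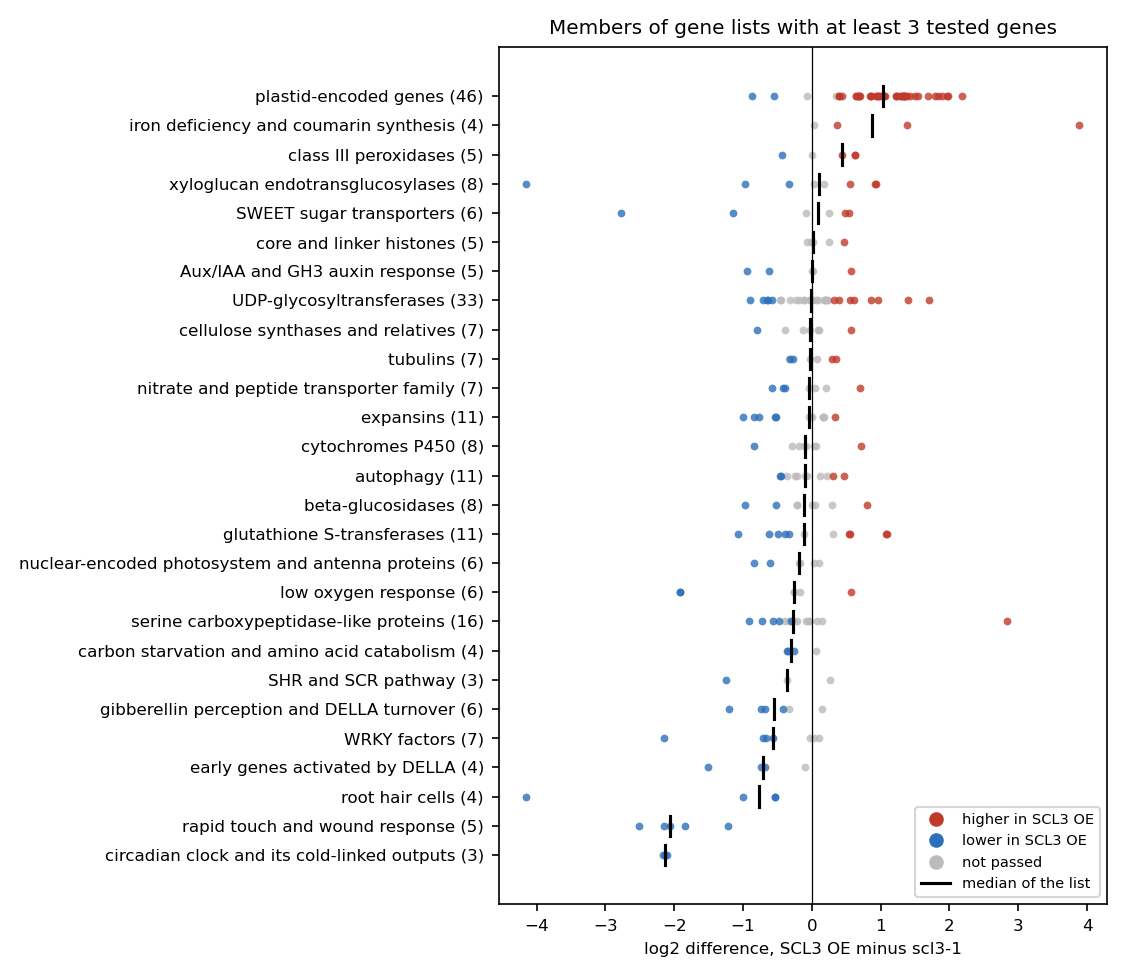
Log2 difference, SCL3OE minus scl3-1, of every tested member (point) of each gene list with at least 3 tested genes, with the list's median (black bar) and its number of tested genes in brackets. Red points were called higher in SCL3OE, blue ones lower, and grey ones did not pass. The clock, touch and root hair lists and the early genes activated by DELLAs lie wholly below 0, and 42 of the 46 plastid genes are red.

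Clock genes were lower in SCL3OE by similar amounts. Of 24 listed genes of the circadian clock and its cold-linked outputs 3 were on tested, named probe sets, and all 3 fell, where 23.6% of all tested probe sets were lower. The gene lists here and below were chosen with earlier results of these data known. Their counts beside the shares of all tested probe sets are therefore descriptions, not independent support. GI (GIGANTEA), which controls clock period and flowering, had signals of 238, 311 and 259 in SCL3OE, 641, 579 and 579 in ga1-3 and 1546, 1111 and 936 in scl3-1. The 3 groups did not overlap, and the lines differed by -2.13 (SE 0.16, adjusted p = 7.48e-08). AT4G33980, known as COR28, fell from 847 ± 130 (SD, n = 3) to 189 ± 14.2 (-2.16, SE 0.14), and its homologue COR27 differed by -2.11 (SE 0.25), or -1.37 with an offset of 50 as its SCL3OE mean was 45.7. For COR27 and AT4G33980 the ga1-3 arrays overlapped those of scl3-1. The hour of harvest is not given in the sources used here.

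Genes that respond within minutes to touch and wounding were also lower. All 5 tested of 13 listed fell, with a median of -2.06, where 23.6% of all tested probe sets were lower. STZ, a zinc finger repressor gene induced by many stresses, had signals of 1498, 1567 and 1587 in SCL3OE, 3469, 3644 and 3680 in scl3-1, and 3458, 3316 and 3719 in ga1-3. The lines were well separated for this bright gene (-1.21, SE 0.08, adjusted p = 4.15e-08), against the direction of most bright genes. The calmodulin-like gene CML38 had signals of 267, 302 and 170 in SCL3OE, 1112, 808 and 1108 in scl3-1 and 1065, 711 and 766 in ga1-3 (-2.06, SE 0.20). WRKY53, a senescence and defence factor gene, had a log2 difference of -2.15 (SE 0.22) and AT1G76640 one of -2.50 (SE 0.34). CML37 differed by -1.84 (SE 0.25), or -1.21 with the offset. For 3 of the 5 genes no SCL3OE array reached the 40th percentile. Of 7 tested WRKY genes 4 fell, including WRKY47 (-0.66, SE 0.11) and WRKY6 (-0.56, SE 0.12), and 0 rose by limma. For 1 of the 7 no SCL3OE array reached the 40th percentile.

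Root hair genes were lower too. All 4 tested of 14 listed fell, beside 23.6% of all tested probe sets, with a median of -0.77: XTH26, described above, the expansin genes EXPA18 and EXPA7, and the peroxidase gene AT1G30870. EXPA18 had signals of 942, 840 and 870 in SCL3OE against 1638, 1952 and 1736 in scl3-1 and 1692, 1612 and 1692 in ga1-3 (-1.0, SE 0.09, adjusted p = 9.82e-07). The differences of EXPA7 (SE 0.12) and AT1G30870 (SE 0.09) were both -0.54. Sizes among the 4 differed widely, from 1.45-fold for EXPA7 and AT1G30870 to that of XTH26, whose size is uncertain (6.23-fold with an offset of 50). Beyond the root hair genes, EXLA1 (-0.85, SE 0.15), EXPA20 (-0.76, SE 0.15) and EXPA8 (-0.52) were lower among 11 tested expansin genes, whose products loosen walls, and EXPB3 (0.34) was higher, with 2 higher after median-centring. The called share of the 11 was 54.5%, against 39.2% of all tested probe sets.

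Both cortex markers fell, where 23.6% of all tested probe sets were lower. AT1G09750, an aspartyl protease gene, had signals of 634, 630 and 623 in SCL3OE, 1318, 1372 and 1460 in ga1-3, and 1492, 1838 and 1661 in scl3-1, so the groups formed 3 separate levels (-1.40 between the lines, SE 0.10, adjusted p = 4.32e-08). AT1G62500 had 182, 140 and 160 in SCL3OE against 216, 264 and 372 in scl3-1 (-0.79, SE 0.20, adjusted p = 0.00509). The one tested endodermis gene, GSO1, which encodes a receptor kinase of the Casparian strip, did not pass (0.06, 95% interval -0.25 to 0.37). Of genes linked to SHR and SCR, JKD, a zinc finger factor gene of ground tissue patterning, had signals of 83.5, 54.1 and 82.0 in SCL3OE against 180, 167 and 168 in scl3-1 (-1.25, SE 0.18, adjusted p = 6.36e-05). With an offset of 50 its difference was -0.85. The GRAS gene AT5G41920 did not pass (-0.36, 95% interval -0.73 to 0.00), nor did SCL21, also a GRAS gene (-0.31, 95% interval -0.56 to -0.05, adjusted p = 0.0546). SEU, a co-regulator gene, did not pass as deposited (0.26, adjusted p = 0.119) but was higher in SCL3OE after quantile normalization (0.41, adjusted p = 0.0172) and median-centring (0.38, adjusted p = 0.023). Of the mitotic kinase genes, AUR2 was lower (-0.44, SE 0.17, adjusted p = 0.046), a call lost under 10 of 19 alternatives, and AUR1 did not pass (-0.15, 95% interval -0.37 to 0.07).

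Gibberellin perception and DELLA turnover genes were lower or did not pass. Of 6 tested 4 fell and 0 rose, with a median of -0.54. Over all tested probe sets 23.6% were lower and the median was -0.07. The same 4 were called under each of the 3 scalings. The receptor gene GID1B had signals of 710, 753 and 694 in SCL3OE, 1298, 1255 and 1066 in scl3-1 and 1007, 1207 and 1226 in ga1-3 (-0.74, SE 0.11, adjusted p = 6.46e-05). GID1A had 695, 611 and 585 in SCL3OE against 862, 1079 and 1092 in scl3-1 (-0.68, SE 0.11, adjusted p = 0.000222). The third receptor gene, GID1C, did not pass (0.14, 95% interval -0.22 to 0.51). The F-box genes SLY2 and SLY1, whose products mark DELLAs for degradation, were lower by log2 differences of -1.20 (SE 0.20) and -0.41 (SE 0.09). SLY2 was dim in SCL3OE (mean 64.1), and its difference was -0.78 with an offset of 50. SPY, for an O-fucosyltransferase that modifies DELLAs, had an adjusted p of 0.0535 (-0.33, 95% interval -0.59 to -0.06). GID1A and GID1B also belong to the early genes activated by DELLAs, of which 3 of 4 tested were lower. The third was the bHLH gene AT2G31730 (-1.51, SE 0.29, or -1.08 with the offset, at an SCL3OE mean of 74.5). XERICO, a RING-H2 gene, did not pass (-0.09, 95% interval -0.34 to 0.15).

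Iron deficiency genes were higher, on few measured members. Of 24 listed 4 were tested and 3 were higher, AT3G12900 being the largest, where 15.5% of all tested probe sets were higher. Since 2 of the 4, AT3G12900 and BHLH101, passed the filter only through SCL3OE, the list was also counted without a filter, where 3 of 5 were higher. After quantile normalization only the same 2 were higher. BHLH101, a factor that activates iron uptake genes, had signals of 221, 228 and 185 in SCL3OE, 61.1, 104 and 81.8 in scl3-1 and 78.0, 101 and 59.5 in ga1-3 (1.39, SE 0.23, adjusted p = 0.000184). AT3G13610, the feruloyl-CoA hydroxylase gene of scopoletin synthesis, is bright and rose by 0.36 (SE 0.13, adjusted p = 0.0337), but by 0.03 after quantile normalization (adjusted p = 0.879). PYE, a negative regulator, did not pass (0.03, 95% interval -0.22 to 0.28).

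Stress and metabolism lists were mixed. Of 6 low-oxygen genes, AT4G24110 fell from 593 ± 50.2 (SD, n = 3) to 157 ± 5.71 (-1.92, SE 0.11) and AT1G19530 from 238 ± 35.4 to 63.0 ± 8.36 (-1.92, SE 0.16). AT1G33055 was called higher (0.57, SE 0.21, adjusted p = 0.0408), although its SCL3OE signals of 575, 387 and 552 overlapped those of scl3-1 at 224, 356 and 470. The pyruvate decarboxylase gene PDC2 did not pass (-0.17, 95% interval -0.44 to 0.10), nor did AT3G27220 and AT4G27450 (both -0.26). Of 4 genes of amino acid catabolism in carbon starvation, AT4G33150, IVD and MCCB were lower (-0.36, -0.34 and -0.25), where 23.6% of all tested probe sets were lower. After quantile normalization or median-centring 0 of the 4 passed in limma. The dehydrin gene LTI30 rose from 6608 ± 1000 to 12718 ± 1276 (0.95, SE 0.11), or by 0.37 after quantile normalization. COR47, also a dehydrin gene, rose by 0.41 (SE 0.10) on the deposited scale and had a value of -0.22 after quantile normalization.

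Bright genes of other families showed the same dependence on scaling. PYK10, the main beta-glucosidase of root ER bodies, was at 19234, 23015 and 23144 in SCL3OE and 14087, 11939 and 11473 in scl3-1. It was called higher (0.80, SE 0.10), but not after quantile normalization (0.10, adjusted p = 0.254). The peroxidase gene PRXR1 was higher by 0.62 (SE 0.09) as deposited and had a value of -0.04 after quantile normalization, and the tubulin gene TUA6 went from 0.29 (SE 0.09) to -0.16. The glutathione transferase gene GSTU25 was bright as well, at 6021, 6738 and 6124 in SCL3OE against 2941, 3005 and 2915 in scl3-1. Its rise of 1.09 (SE 0.10, adjusted p = 7.91e-07) held under every alternative.

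Class III peroxidases, which build and cross-link walls with hydrogen peroxide, were split. The 73 loci of the family were listed after the values were seen, and 39 were tested. Of these 16 were lower, 6 of them at least 2-fold, and 13 were higher, 1 of them at least 2-fold. The called share was 74.4%, against 39.2% of all tested probe sets. After quantile normalization 15 were lower and 7 higher, and after median-centring 14 were lower and 14 higher. The large falls were those of AT1G34510, AT5G19890, AT5G39580, AT1G49570 (-1.75, SE 0.12), AT5G64110 (-1.33) and AT2G39040 (-1.31). AT2G35380 was the 1 large rise, from 381 ± 72.8 (SD, n = 3) to 867 ± 113 (1.20, SE 0.14).

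Glycosyltransferase and glutathione transferase genes moved both ways. Of 33 tested UDP-glycosyltransferase genes, whose products attach sugars to small molecules, 8 were higher and 5 lower, a called share of 39.4% that is near the 39.2% of all tested probe sets. The counts were 11 and 6 after quantile normalization and 10 and 5 after median-centring. Since 2 of the 33 passed the filter only through SCL3OE, the family was also counted without a filter, where 9 were higher and 6 lower. UGT84A1, which acts on hydroxycinnamates, had signals of 308, 424 and 293 in SCL3OE, and 99.9, 126 and 87.9 in scl3-1, with ga1-3 below both (1.70, SE 0.42, adjusted p = 0.00434). UGT72B3 was higher by 1.40 (SE 0.16), and UGT74B1, for an enzyme of glucosinolate synthesis, was lower (-0.90, SE 0.09). Of 11 glutathione transferase genes (81.8% called) 4 were higher, led by GSTU25 and GSTU22 (1.08, SE 0.09), and 5 lower, led by GSTL3 (-1.07, SE 0.10). The counts were 5 and 4 after quantile normalization and 5 and 3 after median-centring. Because 1 of the 11 passed the filter only through SCL3OE, the family was also counted without a filter, where 3 were higher and 5 lower.

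Other wall and transport genes likewise split within families. Among 8 xyloglucan endotransglucosylase genes 3 were higher, XTH32 (0.94, SE 0.18), XTH16 (0.93, SE 0.16) and XTH21 (0.55), and 3 lower, XTH26, XTH18 (-0.96, SE 0.18) and XTH20 (-0.33). The called share was 75.0%, against 39.2% of all tested probe sets. The counts were 3 and 2 after quantile normalization and 4 and 2 after median-centring. Both tested pectin methylesterase genes, PMEPCRF and ATPMEPCRB, were higher (0.80, SE 0.14, and 0.89, SE 0.16), where 15.5% of all tested probe sets were higher. Of 6 SWEET sugar transporter genes (66.7% called) SWEET11 and SWEET3 (-1.15, SE 0.20) were lower and SWEET1 and SWEET2 higher (0.54, SE 0.20, and 0.48, SE 0.11). SWEET3 had an SCL3OE mean of 59.7 and a difference of -0.72 with an offset of 50. Of 16 serine carboxypeptidase-like genes scpl31 was the 1 higher, and 5 were lower, from -0.91 for scpl25 to -0.30 for scpl50, or 4 under either other scaling. The called share of this family was 37.5%, near that of all tested probe sets. Among 7 nitrate and peptide transporter genes (57.1% called) 3 were lower on the deposited scale and 1 higher. The lower ones were the glucosinolate transporter genes GTR1 (-0.39, SE 0.11) and GTR2 (-0.42, SE 0.13), and AT1G59740 (-0.57, SE 0.19). The higher one was AT1G68570 (0.70, SE 0.24). Under the other 2 scalings 0 of the 7 were lower in limma. As 1 of the 7 passed the filter only through SCL3OE, the family was also counted without a filter, where 0 were higher and 2 lower.

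Further short lists had few or small differences. In auxin response, IAA31 (-0.94, SE 0.21) and IAA18 (-0.63, SE 0.15), repressor genes, were lower and GH3.3, for an auxin-conjugating enzyme, was higher (0.57, SE 0.15), with GH3.17 and WES1 not passing. IAA31 had an SCL3OE mean of 62.6 and a difference of -0.60 with an offset of 50. Of 11 autophagy genes 2 were higher and 2 lower (36.4% called, below the 39.2% of all tested probe sets), or 2 and 1 after quantile normalization and 3 and 1 after median-centring. The called share was also below that of all probe sets for 7 genes of cellulose synthases and relatives (28.6%), where CSLC5 was higher (0.57) and CSLC04 lower (-0.79). Of 8 cytochrome P450 genes (25.0% called) CYP71B29 was higher (0.72) and CYP71B26 lower (-0.84). Of 8 beta-glucosidase genes (37.5% called) PYK10, described above, was higher, and BGLU44 (-0.97, SE 0.14) and BGLU16 (-0.52, SE 0.12) were lower. BGLU45, which did not pass as deposited, was higher after quantile normalization (0.44) and median-centring (0.41). Among 5 histone genes HTB4 alone was called, higher by 0.46 (SE 0.09), but its call was lost under quantile normalization (0.19, adjusted p = 0.102), and 2 histone genes were higher after median-centring. Of 7 tubulin genes 2 were higher and 2 lower, which became 1 and 2 after quantile normalization and 2 and 0 after median-centring. Hsp70-2, a heat shock protein gene, was higher by 0.82 (SE 0.14). The proteasome gene RPN12a (0.10), the nitrate transporter gene AT3G21670 (0.04) and NAC014 (-0.35), each the one tested member of its list, did not pass.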

How the data were processed

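Whole-root RNA of 9 samples in 3 groups was measured on 1 array each. The authors deposited linear signal intensities of each probe set, computed with MAS5 in Affymetrix Expression Console 1.1, per the submitters' processing notes. The 2% trimmed mean was 496.0 to 497.0 on all arrays. Detection calls were not used here, and the number of arrays limits precision. Signals were taken to log2 with no offset. The 3 group means were modelled over the 9 arrays together with limma 3.58.1 in R 4.3.3 (eBayes with trend, 6 residual and 9.37 prior degrees of freedom), and all tests were two-sided. Every adjusted p is from limma with Benjamini-Hochberg adjustment over the 14117 probe sets tested. Differences are SCL3OE minus scl3-1 on the log2 scale with the model's SE, and group signals are mean ± SD. Genes with several probe sets were represented by the brightest.

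The genes named are the 12 largest called rises and 12 largest called falls with 1 gene, non-overlapping lines and a brighter mean above 192.8. From each of 52 gene lists, all tested members were added where there were at most 6, otherwise the 4 with the smallest p. Further members outside this rule were chosen after their values were seen. Among them were AT1G49570, AT2G35380, psbE, psbF, psbH, psbJ, psbL, rps15, rbcL and UGT84A1. Sizes are uncertain where a group mean is under 52.96. Members and lists were chosen with earlier results of these data known, 1 gene was removed from a list and the organelle lists were matched by chromosome after the files were read. Names are from the array's gene table and the TAIR10.1 gene table, whose coordinates are not used. The plan to search promoters for motifs was not carried out. The calls were first tested on simulated data. Alternatives covered the filter, the scaling, an offset, the variance model, a replicate block, the arrays used and 1 probe set per gene.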

Additional observations from a re-analysis of the deposited data

How the results depend on the processing

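The count of called probe sets was 5440 without a dim filter, 4353 with the filter at the 60th percentile, 4710 after quantile normalization, 5369 after median-centring, 5533 with an offset of 50, 5307 without trend, 5529 by robust eBayes, 6548 with array weights, 5989 from the 6 arrays alone and 6580 at an adjusted p of 0.1. With 1 probe set per gene it was 2763, fewer because 7617 genes were then tested. It was 4320 to 5930 when any 1 array was left out. The count of at least 2-fold differences was 711, and 1152 without a dim filter, where dim probe sets are added, 490 with the offset and 703 to 773 without any 1 array. Same-numbered SCL3OE and scl3-1 arrays had deviations correlated at -0.01, 0.17 and -0.03, and only SCL3OE replicate 2 correlated best with its own number. So few arrays cannot decide whether the replicate numbers of the labels pair the samples. With a replicate block 5486 probe sets were called. Of 156 named genes 119 were called, and 96 of these kept the call under all of up to 19 alternatives each, while 35 named genes were not tested under the stricter filter. The other 23 lost it at least once, among them AUR2, MCCB, IVD, AT4G33150, AT1G33055, AT3G13610, SWEET1, GTR1, GTR2, HTB4, ATG8G, TUB1, TUB5, cox1 and PYK10. After quantile normalization COR47 (-0.22), PRXR1 (-0.0437) and TUA6 (-0.16) changed sign and did not pass, and the cause was not tested. The 3 clock, 5 touch, 4 root hair and 2 cortex genes kept their counts under all alternatives that tested them. Signals near the bottom of the scale limit the sizes of AT3G12900, XTH26, COR27, CML37 and AT1G23160.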

Other observations

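Where several probe sets measured 1 gene, they never disagreed in the direction of a call. Of 56 genes with several tested probe sets, all were called the same way for 16, some were called for 24 and none for 16. The spread between replicates was smallest in SCL3OE, with a median SD of 0.11 on the log2 scale, against 0.13 in scl3-1 and 0.15 in ga1-3. Of the 711 probe sets with at least 2-fold differences, 334 are unnamed here and 356 have 1 gene, so that about as many of the large differences are without a gene name as with one.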
